A study of Mus musculus with 4 samples.

Results

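The insulin-like growth factor system was followed, in 10 genes, through single-nucleus RNA profiles of mouse hearts: the ligands Igf1 and Igf2, the receptors Igf1r, Igf2r and Insr, and the binding proteins Igfbp3, Igfbp4, Igfbp5, Igfbp6 and Igfbp7. They were taken by symbol from the 21884 genes counted in the series, and all 10 were present. Hearts came from injured offspring of injured fathers (2 libraries) and from injured offspring of uninjured fathers (2 libraries). All animals were male C57BL/6J mice of WT (wild-type) genotype, every heart had been injured on day 1 after birth and was taken 21 days later, and each library held 1 whole heart; the kind of injury and the fathers' identity are not given in the labels. No heart of an uninjured animal was included, so the comparison is of the fathers' injury among offspring that were all injured.

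IGF1 and IGF2 signal through the IGF1 receptor tyrosine kinase, and insulin signals mainly through the closely related insulin receptor; both receptors act through insulin receptor substrates on the PI3K, AKT and mTOR pathway. The receptor encoded by Igf2r, also the mannose 6-phosphate receptor, carries IGF2 to lysosomes and does not signal as a kinase. The secreted binding proteins hold the ligands in the extracellular space and so both store them and keep them from the receptors, with Igfbp7 binding them only weakly. In the heart the system is known for growth of cardiomyocytes before and after birth, and IGF1 also takes part in tissue repair.

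After filtering, 33995 nuclei remained, with 8251 and 9537 in the injured-father libraries and 9416 and 6791 in the uninjured-father libraries. The median nucleus held 2129 and 2665 unique molecular identifiers (UMIs, each standing for 1 counted RNA molecule) in the injured-father libraries and 2527.5 and 1860 in the uninjured-father libraries. Nuclei were grouped into 23 clusters without using the 10 genes, and 20 clusters were given class names that mark likeness to a cell type by lists of marker genes. Of the classes, 8 had at least 50 nuclei in every library and were tested: cardiomyocyte-like (9423 nuclei), fibroblast-like (8103), vascular endothelial-like (7244), pericyte-like (3111), macrophage- or monocyte-like (1454), endocardial-like (1162), B lymphocyte-like (719) and smooth muscle-like (483). Levels are given as CPM, the UMIs of a gene per 1000000 UMIs of the class in a library. Levels are compared between classes for 1 gene at a time, as a description with no test. Cardiomyocyte marker RNA was found in all classes. The summed markers, all 12 of them detected in every class, stood in the other classes at 6.27% to 21.8% of their level in cardiomyocyte-like nuclei. Whether this RNA was free in the droplets or came with doublets that were missed was not tested. A low level of a gene abundant elsewhere is thus not read as expression.

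**Figure D1:**
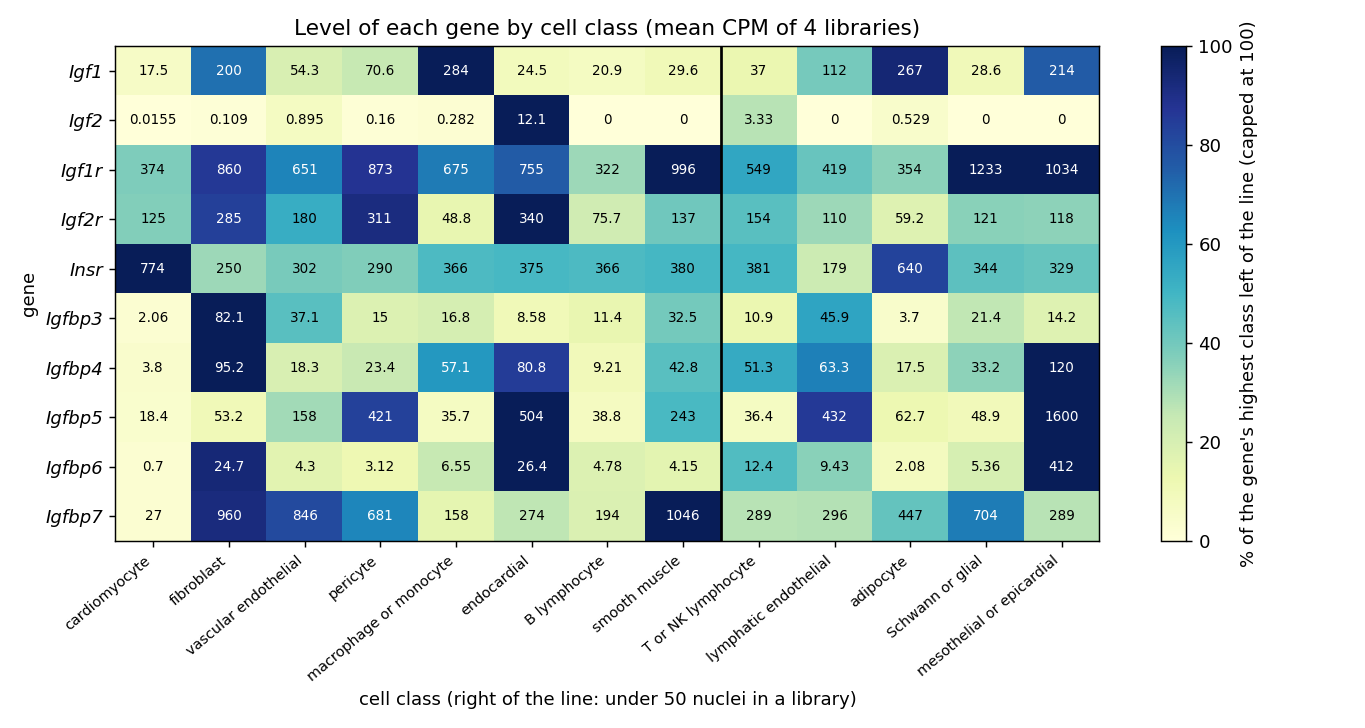
Mean level (CPM over 4 libraries, printed in each cell) of the 10 genes (rows) in 8 tested classes and in 5 classes with too few nuclei in some library (right of the line); colour gives the percentage of the gene's highest tested class. Insr stood at 774 CPM in cardiomyocyte-like nuclei and Igf2 at 12.1 CPM in endocardial-like nuclei, each with no overlap with the next tested class.

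Among the ligands, Igf1 was highest in macrophage-like and fibroblast-like nuclei. It reached 283.7 ± 32.3 CPM in the macrophage class and 200.2 ± 43.6 CPM in fibroblasts (SD, n = 4 libraries), and the values of these classes overlapped. In macrophages the libraries gave 244 and 315.3 CPM in injured-father hearts and 271.5 and 303.9 CPM in uninjured-father hearts. The next class, pericytes, had 70.6 ± 14.8 CPM and did not overlap with fibroblasts, and cardiomyocytes were lowest at 17.5 ± 9.42 CPM. Because fibroblasts were numerous, they held 51.8% ± 4.56 of all Igf1 UMIs, against 9.86% ± 2.62 in macrophages (SD, n = 4). Igf1 was also uneven within classes. In the fibroblast cluster led by Sntg1 (cluster 4) it had 289.6 CPM with all libraries pooled, against 97.2 CPM in the cluster that expressed Pi16 (cluster 9). In the vascular endothelial cluster led by Kirrel3 and Vegfc (cluster 5) it had 117.4 CPM, against 20.6 CPM in the capillary-marker cluster with Fabp4 and Gpihbp1 (cluster 7). In both pairs every library of the higher cluster lay above every library of the lower one. Fnip1, Cmklr1 and Rps6kc1 were the genes whose level across the 23 clusters was most like that of Igf1 (Pearson correlation of log2(CPM + 10) over 7705 genes searched; r of 0.79, 0.79 and 0.79). The clusters share libraries and depth, so such correlations are descriptions.

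Igf2, which is largely a fetal growth factor in mice, was nearly absent. Only 77 UMIs were counted in all nuclei, and 41 of them came from the 1162 endocardial-like nuclei, the lining of the heart chambers. The endocardial level was 10.1 and 13.8 CPM in injured-father hearts and 10.49 and 14.1 CPM in uninjured-father hearts, and no library of another tested class exceeded 1.34 CPM. A further 15 UMIs lay in 279 nuclei left unnamed (cluster 18), which carried endocardial and fibroblast markers together. B lymphocyte-like and smooth muscle-like nuclei had 0 Igf2 UMIs. Sall1, Cytl1 and Ocln were most like Igf2 across clusters (r of 0.95, 0.93 and 0.92). Most of the 77 UMIs came from the endocardial cluster and cluster 18, so these correlations rest largely on those clusters.

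Of the receptors, Igf1r was widespread. It had 996.5 ± 251.6 CPM in smooth muscle-like nuclei, 873.4 ± 117.8 CPM in pericytes and 859.9 ± 182.1 CPM in fibroblasts (SD, n = 4), with overlapping values. The order went on through endocardial, macrophage and vascular endothelial nuclei, each overlapping with the next. Cardiomyocytes had 374.4 ± 103.3 CPM, below all libraries of the vascular endothelial class, and B lymphocytes were lowest at 322.1 ± 87.1 CPM. Within cardiomyocytes, the cluster with atrial markers such as Nppa and Myl4 (cluster 10) had 638.2 CPM of Igf1r, against 373.3 CPM in the largest cluster (cluster 0), and their libraries overlapped. Gkap1, Il1rap and Arhgef25 were most like Igf1r (r of 0.83, 0.77 and 0.76).

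Insr showed the opposite ranking of cardiomyocytes. It stood at 773.7 ± 56.2 CPM in cardiomyocytes, against 379.6 ± 47.7 CPM in the next class, smooth muscle (SD, n = 4), a ratio of 2.04 that was above 1 in 4 of 4 libraries. By library the cardiomyocyte level was 696.9 and 790.2 CPM in injured-father hearts and 776.3 and 831.3 CPM in uninjured-father hearts. Cardiomyocytes held 69.8% ± 4.91 of all Insr UMIs. The other 7 tested classes lay between 249.6 and 379.6 CPM, with fibroblasts lowest and each class overlapping with its neighbour in the order. These are 32.3% to 49.1% of the cardiomyocyte level, above the 6.27% to 21.8% at which cardiomyocyte markers stood outside cardiomyocytes. Among the classes with few nuclei, adipocyte-like nuclei also had much Insr (672.1 CPM with all libraries pooled). Within the vascular endothelium, the Kirrel3 cluster had 532.1 CPM, against 212.1 CPM in the Ccdc85a cluster (cluster 2) and 205.0 CPM in the Fabp4 cluster. Vwa8, D3Ertd751e and Uqcc1 were most like Insr across clusters (r of 0.84, 0.82 and 0.82).

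Igf2r was highest in endocardial-like nuclei (340.0 ± 54.1 CPM), pericytes (311.1 ± 57.1 CPM) and fibroblasts (284.9 ± 65.8 CPM; SD, n = 4), which overlapped. Vascular endothelial nuclei followed at 180.2 ± 31.4 CPM with no overlap with fibroblasts. Macrophages were lowest at 48.8 ± 11.45 CPM, below every library of the B lymphocyte class. Nrk, Tns2 and Fam124a were the genes most like Igf2r across clusters (r of 0.84, 0.80 and 0.78).

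The binding proteins divided the heart by compartment, and cardiomyocyte-like nuclei had the lowest mean level of all 5 among the tested classes. Igfbp3, the main carrier of IGFs in blood, was highest in fibroblasts (82.1 ± 35.9 CPM), followed with no overlap by vascular endothelial nuclei (37.1 ± 9.70 CPM; SD, n = 4). Fibroblasts held 61.9% ± 5.30 of its UMIs. Of the 1784 Igfbp3 UMIs of fibroblasts, 1406 came from the Sntg1 cluster, with 190.1 CPM pooled, against 33.6 CPM in the Gfra1 cluster (cluster 1) and 8.04 CPM in the Pi16 cluster. In the Sntg1 cluster the libraries gave 173.4 and 254.6 CPM in injured-father hearts and 108.6 and 194.4 CPM in uninjured-father hearts. In the Pi16 cluster they gave 2.69 and 5.49 CPM in injured-father hearts and 12.5 and 13.1 CPM in uninjured-father hearts. The Sntg1 cluster was 23.6-fold above the Pi16 cluster, with every library apart. Asxl3, Fbln5 and Eln, the last encoding elastin and Fbln5 a protein of elastic fibres, were the genes most like Igfbp3 across clusters (r of 0.76, 0.72 and 0.71).

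Igfbp4 was highest in fibroblasts (95.2 ± 7.45 CPM) and overlapped with endocardial-like nuclei (80.8 ± 13.98 CPM; SD, n = 4), and Dclk1, Dcn and Sntb2 were most like it (r of 0.86, 0.84 and 0.84). Igfbp6, a binding protein that prefers IGF2, was at 26.4 ± 10.3 CPM in endocardial-like nuclei and 24.7 ± 4.71 CPM in fibroblasts, which overlapped, and averaged at most 6.55 CPM in the other 6 tested classes. The fibroblast cluster with the least Igfbp3 had the most Igfbp6. The Pi16 cluster had 55.2 and 82.3 CPM of Igfbp6 in injured-father hearts and 78.2 and 57.5 CPM in uninjured-father hearts, while the Sntg1 cluster had 14.2 and 26.6 CPM in injured-father hearts and 11.6 and 16.99 CPM in uninjured-father hearts. The untested mesothelial-like class, which covers the heart's surface, had the most Igfbp6 of any class, 398 CPM pooled over 131 nuclei. Efemp1, Slc24a5 and Il33 were most like Igfbp6 (r of 0.92, 0.90 and 0.90).

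Igfbp5, which also binds the extracellular matrix, was highest in endocardial-like nuclei (504.0 ± 92.9 CPM) and pericytes (420.6 ± 24.0 CPM), which overlapped, then in smooth muscle (242.6 ± 38.6 CPM) and vascular endothelium (158.4 ± 45.2 CPM; SD, n = 4). Mesothelial-like nuclei had 1997.5 CPM pooled. It differed widely between clusters of 3 classes. In vascular endothelium the Kirrel3 cluster had 419.3 CPM pooled, 10.2-fold the 41.1 CPM of the Ccdc85a cluster. The Kirrel3 cluster gave 258.3 and 367.5 CPM in injured-father hearts and 597.2 and 495.4 CPM in uninjured-father hearts. In smooth muscle the cluster with Dgkb among its leading genes (cluster 16) had 368.1 CPM pooled, against 38.7 CPM in the Itga8 cluster (cluster 21), for which only 1 library had 50 nuclei. In cardiomyocytes the cluster with Cntn2 (cluster 17), a gene of the conduction system, had 199.1 CPM, 16.2-fold the 12.3 CPM of the largest cluster. In that cluster the libraries gave 213.5 and 210.3 CPM in injured-father hearts and 156.2 and 295.2 CPM in uninjured-father hearts. Megf6, Dync1i1 and Pkhd1l1 were most like Igfbp5 (r of 0.82, 0.76 and 0.73).

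Igfbp7 was high in smooth muscle (1045.7 ± 151.5 CPM), fibroblasts (960.3 ± 60.6 CPM), vascular endothelium (845.5 ± 173.4 CPM) and pericytes (680.8 ± 51.9 CPM; SD, n = 4), each overlapping with the next. It was much lower in endocardial-like nuclei (273.8 ± 76.4 CPM), which did not overlap with pericytes, and lowest in cardiomyocytes (27.01 ± 4.35 CPM). Within vascular endothelium it ran against Igfbp5, Igf1 and Insr. The Kirrel3 cluster had 360.5 CPM, against 1003.9 CPM in the Ccdc85a cluster and 1066.0 CPM in the Fabp4 cluster, and every library of the Kirrel3 cluster lay below every library of the other two. Ldlrad3, Sh3rf1 and Atp8b1 were most like Igfbp7 (r of 0.89, 0.88 and 0.87). Polr2b overlaps Igfbp7 on the opposite strand and had 2501 UMIs, and which strand the counting used is not stated in the labels or headers.

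**Figure D2:**
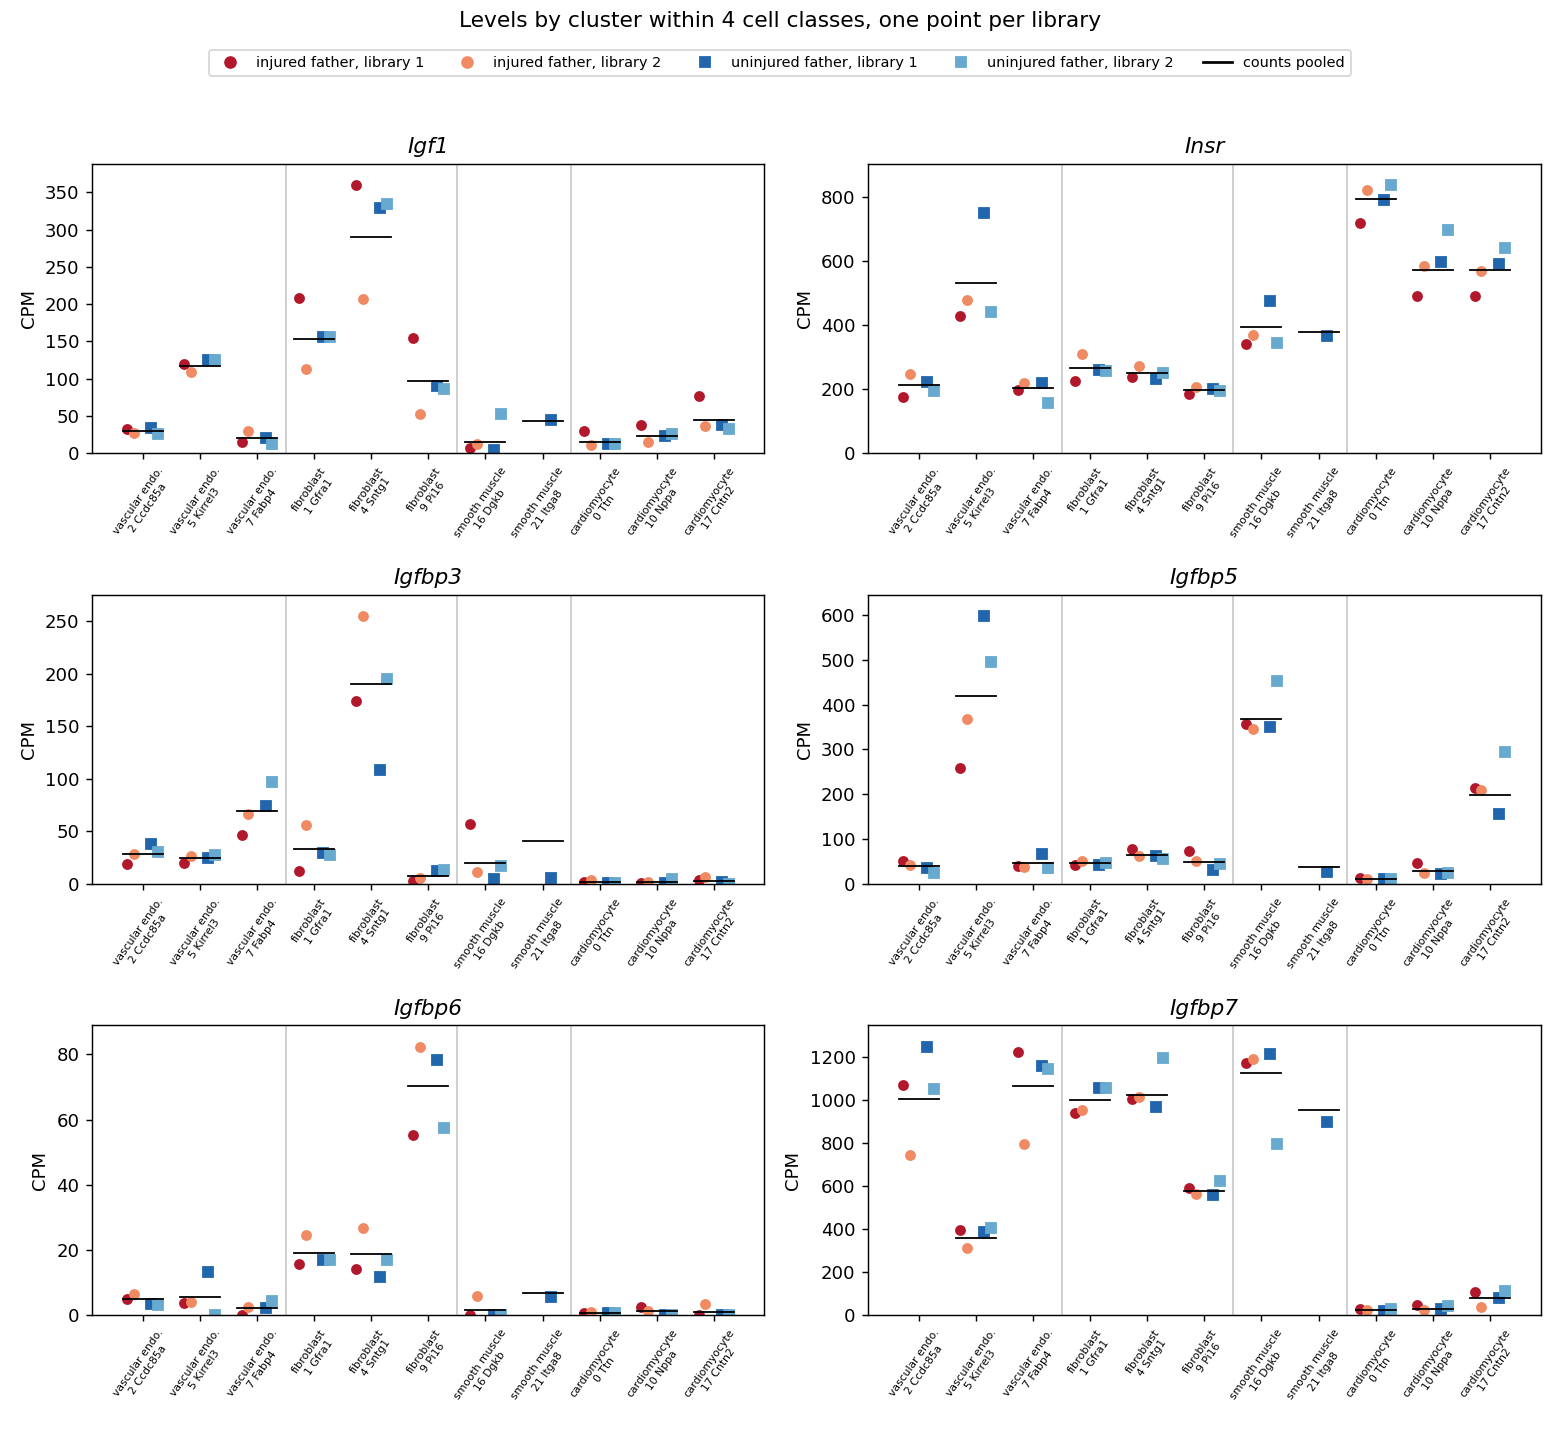
Level (CPM) of 6 genes in the clusters of 4 classes, named by a leading or marker gene; circles are injured-father libraries, squares uninjured-father libraries and lines the counts pooled over libraries (1 point where only 1 library held 50 nuclei of a cluster). The Kirrel3 endothelial cluster was high in Igf1, Insr and Igfbp5 and low in Igfbp7, and Igfbp3 and Igfbp6 marked different fibroblast clusters.

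Promoters are shown for Igfbp3 and for Igfbp5, which differed between clusters of 3 classes. Igfbp3 was the only member called for a father effect that differed between classes, though not under every alternative. Both are 300-base windows that span the transcription start, read 5′ to 3′ on the gene's strand, from RefSeq in the GRCm38.p6 build. Igfbp3 lies on the minus strand at chr11:7213874-7214173 and Igfbp5 on the minus strand at chr1:72874816-72875115. Capitals mark a TATATA run.
Igfbp3: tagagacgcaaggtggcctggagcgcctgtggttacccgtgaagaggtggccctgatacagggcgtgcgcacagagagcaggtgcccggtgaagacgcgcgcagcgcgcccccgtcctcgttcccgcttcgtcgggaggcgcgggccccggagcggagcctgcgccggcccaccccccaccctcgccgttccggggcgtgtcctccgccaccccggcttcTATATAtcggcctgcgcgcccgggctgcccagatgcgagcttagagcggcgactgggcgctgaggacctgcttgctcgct
Igfbp5: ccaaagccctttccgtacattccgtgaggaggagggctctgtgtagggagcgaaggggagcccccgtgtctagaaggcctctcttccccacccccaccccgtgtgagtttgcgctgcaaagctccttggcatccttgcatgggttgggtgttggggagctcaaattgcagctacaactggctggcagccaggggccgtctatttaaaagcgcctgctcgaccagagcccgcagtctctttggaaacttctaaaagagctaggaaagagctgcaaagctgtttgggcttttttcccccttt
Motifs were searched on both strands. The run TATATA, present in 5.67% of 32851 promoter windows, was found among the members in the Igfbp3 window only. The common motif of the TATA box, TATAAA, in 13.6% of all windows, was found for Igfbp4 and Igfbp6, and not in the Igfbp5 window. The core of the GC box, GGGCGG, in 35.7% of all windows, was found for Igf1r, Igf2r, Igfbp7 and in 2 of the 4 Igf2 windows. The Igfbp3 window held 37 CG dinucleotides, more than 94.4% of all windows, and the Igfbp5 window held 10. A match describes the letters only. Windows were found for 9 of the 10 genes.

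The main question of the design was whether the fathers' injury changed these genes in injured offspring. Counts were summed by class and library and tested with edgeR's quasi-likelihood test over all genes with enough counts, with Benjamini-Hochberg adjustment and a threshold of 0.05 on the adjusted p. None of the members passed in any of the 8 classes. Over 61 tests of a member in a class, the smallest adjusted p was 0.245. DESeq2 and limma-voom also called 0. At an unadjusted p under 0.05 there were 11 such tests of 61, or 18.0%, against 3380 of 72883 tests of all genes, or 4.64%. The tests of a member repeat over classes of the same hearts, and Igfbp3 and Igf1r recur among the 11. The cardiomyocyte and pericyte values of Igfbp3 among them are not read as effects, as given below. The members were also chosen with earlier results of these data known, so these shares are a description and not a test. With 2 libraries a group, an exact permutation test of 1 gene cannot go below 0.333, and nothing in the labels says whether the 2 hearts of a group had different fathers, so the spread between libraries may not be the spread between fathers.

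**Figure D3:**
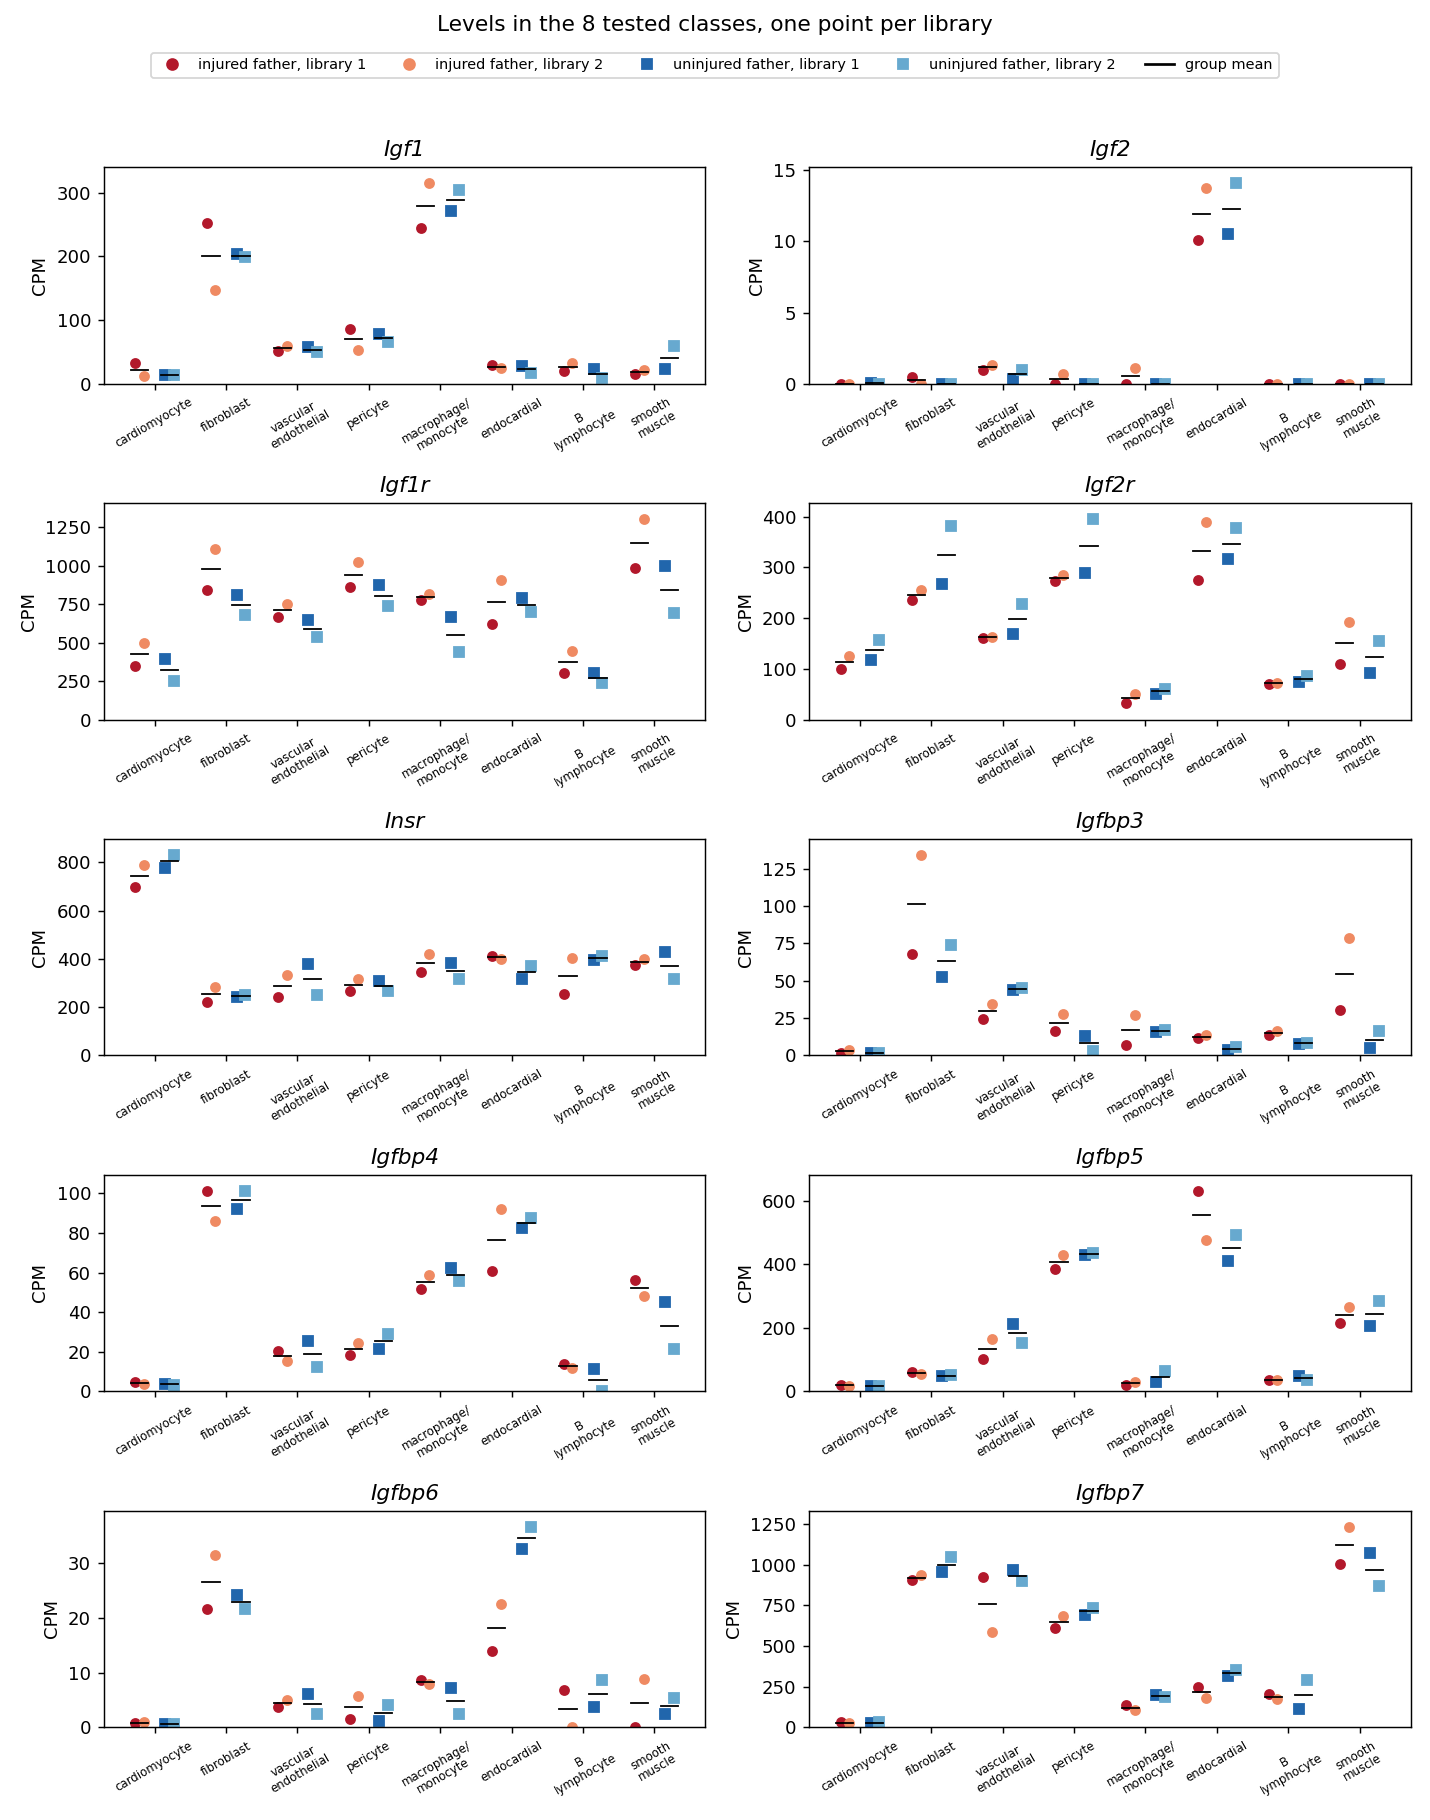
Level (CPM) of each gene in each library of the 8 tested classes; circles left of each tick are injured-father libraries, squares right of it uninjured-father libraries, and lines are group means. The spread between libraries of a group was often as large as the distance between groups, and Igf1r was highest in injured-father library 2 in all 8 classes.

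In cardiomyocytes 8 members had enough counts. None was called, where 1 of 12515 genes was (0.00799%), and both injured-father libraries lay above both others for 2 members (14.1% of all genes) and below them for 0 (16.4% of all genes). The median log2 fold change of the 8 was 0.16, against -0.00092 for all genes tested. Igfbp3 had 1.82 and 3.60 CPM in injured-father hearts and 1.36 and 1.43 CPM in uninjured-father hearts, a log2 fold change of 1.01 ± 0.42 SE (edgeR unadjusted p = 0.0402, adjusted p = 1.00). This level is 2.502% of that in fibroblasts, and the 12 fibroblast markers stood in cardiomyocytes at 2.67% of their fibroblast level. The value is thus not read as a difference within cardiomyocytes, and the part of fibroblast RNA in it was not tested. Igf1 had 31.6 and 11.6 CPM in injured-father hearts and 14.1 and 12.9 CPM in uninjured-father hearts. Its first injured-father library stood alone. The log2 fold change was 0.66 ± 0.38 SE (edgeR adjusted p = 1.00), and without the second injured-father library it was 1.22 (edgeR adjusted p = 0.000274), with the lone library assumed to vary like the other group's.

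In fibroblasts 9 members were tested and none called, where 1 of 12347 genes was (0.0081%). Injured-father libraries lay above for 2 members (13.5% of all genes) and below for 2 (16.5%), and the median log2 fold change was 0.07, against -0.00038 for all genes. Igfbp3 had 67.8 and 134.3 CPM in injured-father hearts, against 52.7 and 73.7 CPM in uninjured-father hearts, a log2 fold change of 0.73 ± 0.26 SE (edgeR unadjusted p = 0.0164, adjusted p = 1.00). The groups overlapped, and injured-father library 2 stood high. Without injured-father library 1, with 1 library left in that group, the log2 fold change was 1.14. With no filter on low counts the edgeR adjusted p was 0.00637. In the Gfra1 cluster alone, the largest of the class, the log2 fold change was 0.35. Fibroblasts of the Sntg1 cluster, where Igfbp3 was highest, made up 37.1% and 43.1% of fibroblasts in injured-father hearts and 33.4% and 29.0% in uninjured-father hearts; the part of this share in the class value was not tested. Igf2r had 235.1 and 255.0 CPM in injured-father hearts and 268.0 and 381.5 CPM in uninjured-father hearts, a log2 fold change of -0.37 ± 0.16 SE (edgeR unadjusted p = 0.0329, adjusted p = 1.00).

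Vascular endothelial nuclei had 9 members tested and none called, with 0 of 11332 genes called in all (0%) and 595 at an unadjusted p under 0.05; DESeq2 and limma-voom called none of the members either. Injured-father libraries lay above for 1 member (13.2% of all genes) and below for 2 (22%). The median log2 fold change of the 9 was -0.13, against -0.0092 for all genes. Igfbp3 had the opposite sign to its value in fibroblasts. It had 24.4 and 34.7 CPM in injured-father hearts, against 43.8 and 45.4 CPM in uninjured-father hearts, a log2 fold change of -0.54 ± 0.19 SE (edgeR unadjusted p = 0.0183, adjusted p = 0.897). The Fabp4 cluster, where endothelial Igfbp3 was highest, made up 14.2% and 15.01% of the class in injured-father hearts and 20.7% and 20.2% in uninjured-father hearts. Within that cluster Igfbp3 had 46.3 and 66.8 CPM in injured-father hearts and 73.8 and 96.8 CPM in uninjured-father hearts, which did not overlap. Igfbp7 had a log2 fold change of -0.62 without injured-father library 1, against -0.27 with all libraries. Igfbp5 had -0.83 without injured-father library 2, against -0.41 with all libraries. Each of these fits leaves 1 library in the injured-father group.

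Among macrophages 8 members were tested and none called, where 23 of 8370 genes were (0.275%). Injured-father libraries lay above for 1 member (15.5% of all genes) and below for 1 (19.4%). The median log2 fold change was -0.05, against -0.0049 for all genes. Igfbp7 had 134.2 and 108.1 CPM in injured-father hearts and 200.8 and 187.2 CPM in uninjured-father hearts, a log2 fold change of -0.68 ± 0.21 SE (edgeR unadjusted p = 0.00214, adjusted p = 0.245). The 12 fibroblast markers, all detected in the macrophage class, summed to 879.1 and 1188 CPM there in injured-father hearts and 1356 and 1070 CPM in uninjured-father hearts. The 10 vascular endothelial markers, also all detected, summed to 802.6 and 685.7 CPM in injured-father hearts and 934.4 and 1148 CPM in uninjured-father hearts, with no overlap, as in Igfbp7. The 6 smooth muscle markers, 1 of them at 0, summed to 69.3 and 52.9 CPM in injured-father hearts and 118.4 and 97.2 CPM in uninjured-father hearts, again with no overlap. The 9 pericyte markers summed to 319.0 and 281.5 CPM in injured-father hearts and 280.2 and 291.7 CPM in uninjured-father hearts, which overlapped. In macrophages the vascular endothelial list stood at 8.32% of its own class, the smooth muscle list at 1.40% and the pericyte list at 2.09%. Igfbp7 is high in each of these classes, and the part of their RNA in the macrophage value was not tested. Igf1r had 778.0 and 817.5 CPM in injured-father hearts and 667.3 and 437.6 CPM in uninjured-father hearts, a log2 fold change of 0.53 ± 0.17 SE (edgeR unadjusted p = 0.00296, adjusted p = 0.282). Without uninjured-father library 1, with 1 library left in that group, it was 0.92. Igf1, the ligand most abundant in this class, differed by -0.012 ± 0.18 SE.

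In pericytes 8 members were tested and none called, where 3 of 10025 genes were (0.0299%), with 1 member above (13.9% of all genes) and 2 below (18.5%) and a median log2 fold change of -0.05, against -0.00051 for all genes. Igfbp3 had 16.4 and 27.6 CPM in injured-father hearts and 13.1 and 3.02 CPM in uninjured-father hearts, from 90 UMIs in all, a log2 fold change of 1.295 ± 0.42 SE (edgeR unadjusted p = 0.00425, adjusted p = 0.998). The 12 fibroblast markers summed to 1768 and 1787 CPM in pericytes of injured-father hearts and 1734 and 1972 CPM in those of uninjured-father hearts; their mean was 17.5% of the fibroblast level, against 18.3% for Igfbp3. Endocardial-like nuclei had 9 members tested and none called, where 2 of 8325 genes were (0.024%), with 1 above (15.4% of all genes) and 2 below (17.6%) and a median of 0.06, against -0.0025 for all genes. There Igfbp7 had 250.0 and 178.5 CPM in injured-father hearts and 313.6 and 353.1 CPM in uninjured-father hearts, a log2 fold change of -0.63 ± 0.18 SE (edgeR unadjusted p = 0.00316, adjusted p = 0.634). Endocardial Igfbp6 had 13.9 and 22.5 CPM in injured-father hearts and 32.6 and 36.7 CPM in uninjured-father hearts, a log2 fold change of -0.82 ± 0.38 SE (edgeR unadjusted p = 0.0418, adjusted p = 1.00). The 12 fibroblast markers summed to 1423 and 1203 CPM there in injured-father hearts and 1373 and 1576 CPM in uninjured-father hearts, which overlapped. The 9 pericyte markers, all detected, summed to 200.8 and 308.4 CPM in injured-father hearts and 520.0 and 398.3 CPM in uninjured-father hearts, and the 6 smooth muscle markers, 1 of them at 0, to 64.4 and 71.8 CPM in injured-father hearts and 131.7 and 138.4 CPM in uninjured-father hearts. Neither list overlapped between groups, and in endocardial-like nuclei they stood at 2.55% (pericyte) and 1.68% (smooth muscle) of their own class. Both classes hold much Igfbp7 but little Igfbp6 (3.12 CPM in pericytes and 4.15 CPM in smooth muscle). Their part in the endocardial Igfbp7 value was not tested. Endocardial Igf2, with 41 UMIs, had a log2 fold change of 0.09 ± 0.53 SE, so only large differences were detectable at this depth.

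B lymphocytes had counts for 4 members and smooth muscle for 6. None was called in either, with 0 of 5221 genes called in B lymphocytes (0%; 277 at an unadjusted p under 0.05) and 0 of 4748 in smooth muscle (0%; 201 at an unadjusted p under 0.05). DESeq2 and limma-voom called none of these members. Libraries of injured fathers lay above for 1 member and below for 1 in B lymphocytes (18.6% and 16% of all genes), and above for 1 and below for 0 in smooth muscle (17.7% and 15.6%). In both classes the smallest p belonged to Igf1r. Its log2 fold change was 0.40 ± 0.27 SE in B lymphocytes (edgeR adjusted p = 0.976) and 0.41 ± 0.24 SE in smooth muscle (adjusted p = 0.995).

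Igf1r was the only member whose fitted log2 fold change was positive in all 8 classes, from 0.06 in endocardial-like nuclei to 0.53 in macrophages, and none of these passed the test. In fibroblasts it had 842.3 and 1111.6 CPM in injured-father hearts and 807.4 and 678.0 CPM in uninjured-father hearts (log2 fold change 0.41 ± 0.17 SE, edgeR unadjusted p = 0.0335, adjusted p = 1.00). In vascular endothelium it had 669.0 and 752.4 CPM in injured-father hearts and 644.8 and 538.4 CPM in uninjured-father hearts (0.30 ± 0.13 SE, unadjusted p = 0.0455, adjusted p = 0.934). Within the groups its libraries kept an order: injured-father library 2, the deepest, was highest in 8 of 8 classes, and uninjured-father library 2, the shallowest, was lowest in 7 of 8. The part of depth in these values was not tested. Igf2r ran the other way, with a negative value in 7 of its 8 classes and injured-father library 1 lowest in 7 of 8.

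**Figure D4:**
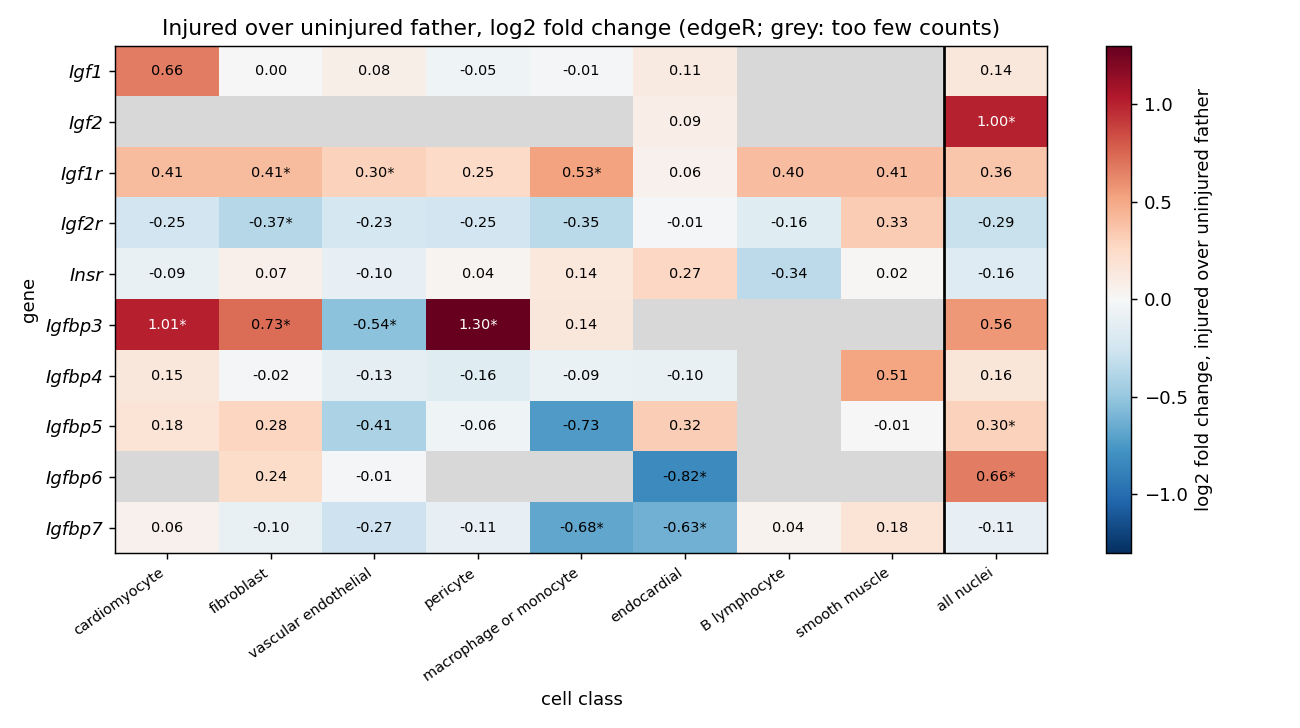
Log2 fold change of injured over uninjured fathers for each gene (rows) in the 8 tested classes and, right of the line, in all nuclei summed; red is higher with injured fathers, asterisks mark an unadjusted p under 0.05 and grey cells had too few counts. No value passed an adjusted p of 0.05, and Igf1r was positive in 8 of 8 classes.

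With all nuclei summed, none of the 10 members was called by edgeR, where 15 of 14891 genes were (0.101%); DESeq2 and limma-voom also called 0, and 3 members had an unadjusted p under 0.05. Injured-father libraries lay above for 5 members (20.5% of all genes) and below for 1 (14.2%). Igfbp6 had 10.8 and 13.7 CPM in injured-father hearts and 8.29 and 6.84 CPM in uninjured-father hearts (log2 fold change 0.66 ± 0.21 SE, unadjusted p = 0.0149, adjusted p = 0.534). Igfbp5 had 115.0 and 114.4 CPM in injured-father hearts and 93.8 and 90.7 CPM in uninjured-father hearts (0.30 ± 0.11 SE, unadjusted p = 0.0247, adjusted p = 0.618). Both are most abundant in mesothelial-like nuclei, of which the libraries held 55 and 61 in injured-father hearts and 9 and 6 in uninjured-father hearts. These few nuclei supplied 38.6% and 20.7% of all Igfbp6 UMIs in injured-father hearts and 6.51% and 1.87% in uninjured-father hearts. Of Igfbp5 UMIs they supplied 17.6% and 14.1% in injured-father hearts and 1.25% and 0.634% in uninjured-father hearts. With only the 8 tested classes summed, a setting chosen after the data were seen, the log2 fold change was 0.25 for Igfbp6 and 0.11 for Igfbp5. Without injured-father library 1, with 1 library left in that group, the log2 fold change in all nuclei was 0.84 for Igfbp6 and 0.95 for Igfbp3. In summed nuclei, more nuclei of a class and more RNA per nucleus cannot be told apart. Igf2 had 19 and 36 UMIs in injured-father hearts and 14 and 8 UMIs in uninjured-father hearts (log2 fold change 1.00 ± 0.42 SE, unadjusted p = 0.0462, adjusted p = 0.696), while endocardial-like nuclei, its main source, made up 3.48% and 4.42% of nuclei in injured-father hearts and 2.96% and 2.56% in uninjured-father hearts.

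Igfbp3 was called for a father effect that differed between classes, though not under every alternative. In one model over the 8 classes, with a term for each library and a father effect for each class, the test of unequal father effects gave an adjusted p of 0.00783 for Igfbp3 (edgeR quasi-likelihood F = 7.62, unadjusted p = 7.06e-06). It was the only 1 of 10 members called, where 25 of 12441 genes were (0.201%). Igfbp5 followed with an unadjusted p of 0.0359 and an adjusted p of 0.834. The fitted values were positive in pericytes (1.295), cardiomyocytes (1.01), fibroblasts (0.73) and macrophages (0.14) and negative in vascular endothelium (-0.54). The cardiomyocyte value stood near the share of fibroblast markers there and is not read as an effect, as given above. Pericyte Igfbp3 stood at 18.3% of the fibroblast level and the fibroblast markers in pericytes at 17.5% of theirs. The groups did not overlap in pericyte Igfbp3, while they did overlap in the fibroblast markers there. The pericyte value, from 90 UMIs and not called alone (edgeR adjusted p = 0.998), is not read as an effect. The part of fibroblast RNA in that value was not tested. The test over 8 classes includes both the cardiomyocyte and the pericyte value. A model of fibroblasts and vascular endothelium alone, given below, did not call Igfbp3 (edgeR adjusted p = 0.177). In the rest of the 8 classes Igfbp3 lacked the counts for a test alone. In endocardial-like nuclei it had 11.4 and 13.8 CPM in injured-father hearts and 3.50 and 5.65 CPM in uninjured-father hearts. Its mean there was 10.4% of the fibroblast level, below the 13.5% of the fibroblast markers. In smooth muscle (31 UMIs) it had 30.1 and 78.9 CPM in injured-father hearts and 5.01 and 16.05 CPM in uninjured-father hearts. In B lymphocytes (13 UMIs) it had 13.7 and 16.04 CPM in injured-father hearts and 7.42 and 8.56 CPM in uninjured-father hearts. These means were 39.6% and 13.9% of the fibroblast level, above the markers' 18.9% and 8.43%. The part of fibroblast RNA was not tested.

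**Figure D5:**
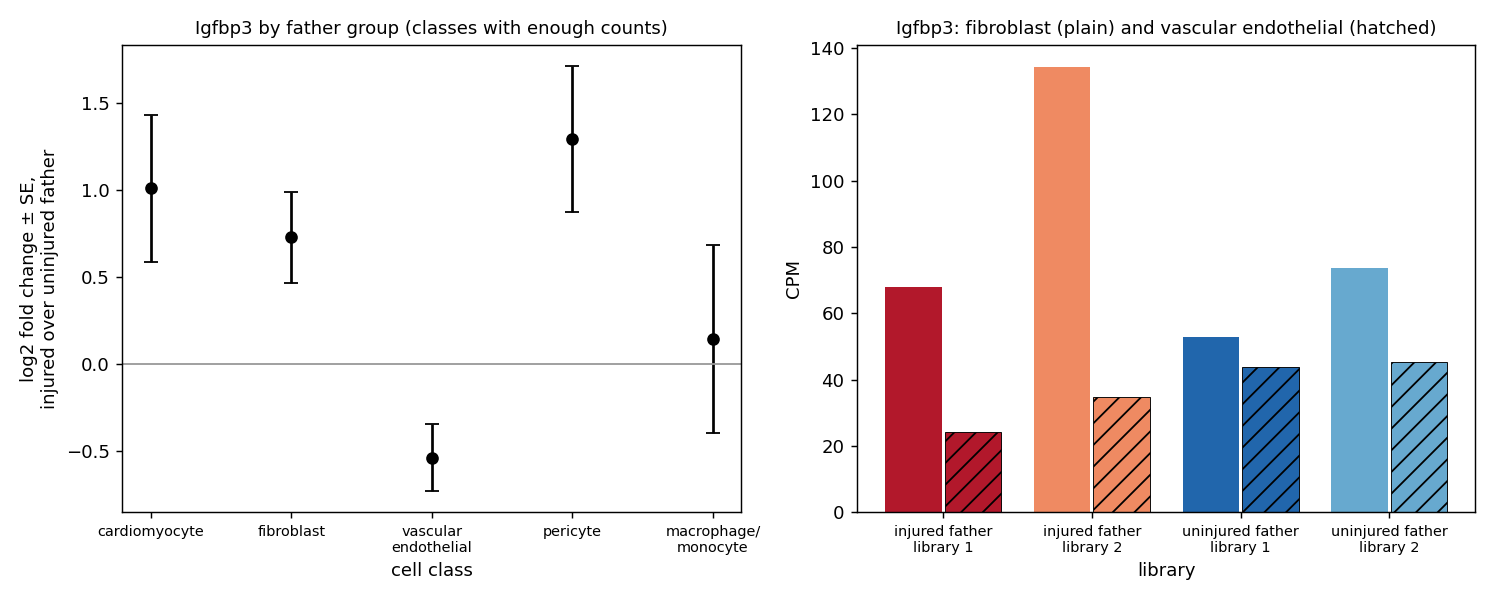
Left, log2 fold change of Igfbp3 (injured over uninjured fathers, bars give the SE) in the 5 classes with enough counts. The cardiomyocyte and pericyte values are not read as effects in those classes. Right, the Igfbp3 level (CPM) in fibroblast-like (plain bars) and vascular endothelial-like nuclei (hatched bars) of each library. The ratio of the bars was 2.78 and 3.87 in the injured-father libraries and 1.20 and 1.62 in the uninjured-father libraries.

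Within a library, which removes differences of the whole library, fibroblasts had 2.78 and 3.87 times the vascular endothelial Igfbp3 level in injured-father hearts, against 1.20 and 1.62 times in uninjured-father hearts. A model of these 2 classes alone, added after the data were seen, put the difference of their father effects at 1.28 on the log2 scale (edgeR unadjusted p = 1.42e-05, adjusted p = 0.177); 0 of 12480 genes passed there (0%), 672 had an unadjusted p under 0.05, and the model was not run with another tool. Igfbp3 was called there with no filter on low counts (adjusted p = 8.71e-07) and without injured-father library 1 (1.52e-08), uninjured-father library 1 (0.0354) or uninjured-father library 2 (0.00298), but not without injured-father library 2 (0.0579) or in the largest cluster of each class (0.977). Under the other 6 alternatives it was not called either, with adjusted p of 0.100 to 0.651 and differences of 1.24 to 1.31. The difference over 8 classes was not called without injured-father library 2 (adjusted p = 0.138), uninjured-father library 1 (0.274) or uninjured-father library 2 (0.242), and was called without injured-father library 1 (0.00012). It was not called either when each class was cut to its largest cluster (adjusted p = 0.826); there the fibroblast minus vascular endothelial difference was 0.76 (unadjusted p = 0.0440), with the same sign, against 0.99 without injured-father library 2. The part of the cluster shares in the class values was not tested. In the Sntg1 cluster the injured-father and uninjured-father values overlapped, as given above. Leaving out 1 library leaves 1 in its group, so a fit without it has no spread within that group. The values by class and the difference between classes rest on the same 4 hearts.

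The rest of the pathway was read from 8 lists with 74 genes, of which 71 were among the features and 63 had enough counts in a class. Over 414 tests of a listed gene in a class, 0 were called by edgeR, 17 had an unadjusted p under 0.05 (4.11%, against 4.64% over all genes and classes), 223 fold changes were positive and 191 negative, and the median log2 fold change was 0.020. The share at an unadjusted p under 0.05 was thus near that of all genes, and the genes below are given for their values. By list, the IGFBP proteases and their inhibitors (26 tests) had 2 values at an unadjusted p under 0.05, both of Stc2, whose product stanniocalcin 2 inhibits the protease PAPP-A that frees IGFs from binding proteins. Stc2 had 14.3 and 16.7 CPM in cardiomyocytes of injured-father hearts and 24.1 and 26.5 CPM in those of uninjured-father hearts (log2 fold change -0.68 ± 0.17 SE, edgeR adjusted p = 0.688). In fibroblasts it had 29.4 and 41.6 CPM with injured fathers and 43.7 and 61.3 CPM with uninjured fathers (-0.51 ± 0.20 SE, adjusted p = 1.00). Without injured-father library 2, with 1 library left in that group, the fibroblast value was -0.80.

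The receptor adaptors (80 tests, 5 at an unadjusted p under 0.05) had their smallest p for Grb14, which inhibits the insulin receptor. In macrophages Grb14 had 73.6 and 70.9 CPM in injured-father hearts and 153.1 and 90.0 CPM in uninjured-father hearts. The log2 fold change was -0.78 ± 0.25 SE (edgeR adjusted p = 0.283), and without uninjured-father library 2 it was -1.09. All nuclei summed had 246.9 to 402.2 CPM of Grb14. The cardiomyocyte markers in macrophages summed to 7220 and 8160 CPM in injured-father hearts and 10536 and 8674 CPM in uninjured-father hearts. They stood there at 10.1% of their own class, and the part of RNA from other classes in the Grb14 value was not tested. Irs1, the insulin receptor substrate, had 236.1 and 203.3 CPM in pericytes of injured-father hearts and 162.7 and 163.9 CPM in those of uninjured-father hearts (0.45 ± 0.15 SE, adjusted p = 0.998). The PI3K, AKT and phosphatase list had 104 tests, 3 at an unadjusted p under 0.05. Inpp5d, a lipid phosphatase known from blood cells, had 6.68 and 6.73 CPM in cardiomyocytes of injured-father hearts. In those of uninjured-father hearts it had 3.90 and 3.91 CPM (log2 fold change 0.79 ± 0.24 SE, edgeR adjusted p = 0.864). Its value in pericytes was 0.83 ± 0.34 SE (adjusted p = 0.998). All nuclei summed had 64.0 to 90.7 CPM of Inpp5d, so these low levels are not read as expression in either class. Among FOXO factors and their targets (43 tests, 3 at an unadjusted p under 0.05), Pdk4, a kinase that restrains glucose oxidation, had 21.5 and 39.3 CPM in cardiomyocytes of injured-father hearts and 15.3 and 20.7 CPM in those of uninjured-father hearts (0.80 ± 0.28 SE, adjusted p = 0.999), and its adjusted p with no filter on low counts was 0.00784. Trim63, a ubiquitin ligase of muscle, had -1.03 ± 0.43 SE in smooth muscle from 8 to 28 UMIs a library. Its level there, 30.1 to 70.1 CPM, was below the 104.4 to 200.5 CPM of all nuclei summed. The cardiomyocyte markers stood in smooth muscle at 11.3% of their own class, and the part of RNA from other classes in the Trim63 value was not tested.

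The mTOR branch (75 tests) had 1 value at an unadjusted p under 0.05, that of Deptor, an inhibitor of mTOR, in macrophages. Deptor had 203.5 and 266.9 CPM there in injured-father hearts and 170.4 and 167.8 CPM in uninjured-father hearts (log2 fold change 0.50 ± 0.20 SE, edgeR adjusted p = 0.626), and Rictor in B lymphocytes had 0.58 ± 0.28 SE (adjusted p = 0.933). The growth hormone axis (46 tests) also had 1 such value, that of Socs2, a feedback inhibitor of growth hormone signalling, in fibroblasts (-0.34 ± 0.14 SE, adjusted p = 1.00), and Cish in cardiomyocytes had 0.34 ± 0.15 SE (adjusted p = 1.00). Of the 6 genes listed as neighbours of Igf2 and Igf2r or as Igf2 mRNA-binding proteins, 3 were among the features and 2 were tested, in 13 tests; both values at an unadjusted p under 0.05 were of Igf2bp3. Igf2bp3 had 173.2 and 166.7 CPM in macrophages of injured-father hearts and 108.3 and 124.0 CPM in those of uninjured-father hearts (0.57 ± 0.22 SE, adjusted p = 0.529). In cardiomyocytes it had 5.67 and 6.05 CPM in injured-father hearts and 8.10 and 8.87 CPM in uninjured-father hearts (-0.51 ± 0.22 SE, adjusted p = 1.00). All nuclei summed had 15.6 to 18.5 CPM of Igf2bp3, so this low level is not read as expression in cardiomyocytes. The other ligands, binding proteins and receptors (27 tests) had 0 values at an unadjusted p under 0.05; their smallest p were for Lrp1 in macrophages (-0.35 ± 0.18 SE, adjusted p = 0.818) and Cd93 in vascular endothelium (-0.25 ± 0.12 SE, adjusted p = 0.934). Ins1, Igfbp1 and Irs4 had 0 UMIs in the nuclei kept, and Igfbp2 had 6.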

How the data were processed

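Nuclei of 4 whole hearts, sorted with a Ter119 antibody against red blood cells, went into 10x Chromium 3′ libraries, per the labels' protocols. The authors deposited raw UMI counts per gene and barcode; the file headers name Cell Ranger 6.0.1, and Seurat 4.0 is named in the submitters' processing notes. No source used here gives the genome build or annotation; 21779 of 21884 gene identifiers are in GENCODE M21. Features and barcodes files hold names only.

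Barcodes (39696) needed 500 UMIs, 300 genes and under 5% mitochondrial UMIs, and doublets (9.62% to 14.9% of a library) were removed with Scrublet. Between 2 libraries, 23 to 33 barcodes were shared. Leiden clustering (scanpy 1.11.5, leidenalg 0.10.2, resolution 1.0, 3000 variable genes, 30 components, 20 neighbours) left out 81 genes of the system. Clusters were named by marker lists; the rule that left 3 unnamed was written after the clusters were seen. Counts per class and library were tested in edgeR 4.0.16 (TMM, filterByExpr with a minimum count of 10, quasi-likelihood test, Benjamini-Hochberg over all genes), checked on simulated counts; DESeq2 1.42.0 and limma 3.58.1 were alternatives. Same-numbered libraries did not deviate together, so no pairing was used.

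The members and gene lists were chosen with earlier results of these data known. Fold changes are named where an unadjusted p was under 0.05, or for the smallest p of a class; of each list, the 2 smallest p over all classes are named; likeness names the 3 highest correlations of genes reaching 50 CPM in a cluster. Alternatives covered scaling, filters, tools, leaving out each library, clustering, doublets and class naming. Igfbp7 overlaps Polr2b on the opposite strand and Igf2 overlaps Gm49394 (1 UMI); no source used here gives the strand setting. T or NK, lymphatic, adipocyte, Schwann and mesothelial classes had too few nuclei to test.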

Additional observations from a re-analysis of the deposited data

Results flagged for a closer look

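The difference of the Igfbp3 father effect between classes was the only one of the 10 members past the threshold, with an edgeR adjusted p of 0.00783. It was not called in the largest cluster of each class, nor in most settings that left out 1 library. The values are in the report. In 6 of 74 sets of 4 library values, 1 library stood far from the other 3 (Dixon's criterion at the 95% level); chance gives about 1 in 20 such sets. In cardiomyocytes Igf1 was 31.6 CPM in injured-father library 1, against 11.6 to 14.1 CPM in the other 3. Uninjured-father library 2 stood high in Igf2r, with 227 CPM in vascular endothelium and 396 CPM in pericytes. Insr in B lymphocytes was 253 CPM in injured-father library 1. Igfbp5 was 385 CPM in pericytes of injured-father library 1, below the other 3, and 48.2 CPM in B lymphocytes of uninjured-father library 1, above the other 3.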

How the results depend on the processing

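The count of members called by father group, 0 in each class and in all nuclei, became 1 in fibroblasts with no filter on low counts and with the replicate block (the replicate number as a term; adjusted p of Igfbp3 0.0474); the numbers do not pair the hearts, since correlations of deviations ran from -0.0375 to 0.104. Leaving out 1 library gave 0 to 1 in cardiomyocytes, fibroblasts, vascular endothelium and macrophages and 0 to 2 in all nuclei. The count of members whose father effect differed between classes, 1, was 3 with no filter, 0 with the largest cluster of each class and 0 to 2 with 1 library left out. The adjusted p of Igfbp3 was 0.826 with the largest clusters, 0.00012 to 0.274 with 1 library left out, and 2.4e-07 to 0.0375 under the other alternatives. Fits with 1 library left out have no spread within the group that lost it. Causes were not tested. Igf1 in macrophages was 206 CPM with doublets kept, and Igfbp5 in endocardial-like nuclei 394 CPM with classes set by marker score; the highest class stayed first in 94 of 100 alternative values, the exceptions being Igfbp5, Igfbp6 and Igfbp7, whose leading classes overlapped. Of 470 alternative values of 32 named fold changes, 8 passed the threshold and 0 changed sign. These fold changes were named for a small p and the alternatives reuse the same hearts, so a kept sign is largely fixed by that choice. Members with few UMIs, Igf2 above all, are limited by depth.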
